A study of Homo sapiens with 12 samples.

Results

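Clustered protocadherins are cadherin-type adhesion receptors whose genes stand in a row on chromosome 5 as an alpha, a beta and a gamma cluster. They were taken as the rows of the deposited gene table whose symbol starts with PCDHA, PCDHB or PCDHG, which gave 57 of 60234 genes. Of these, 52 are coding members (15 alpha, 16 beta and 21 gamma) and 5 are pseudogenes, described apart. PCDHGB5 was not analysed here. RNA was sequenced from MDA-MB-231, an established human cell line of triple-negative breast cancer. A population named fast, captured by the trajectory of its cells, was compared with the parental population. The labels name no other treatment, and no genetic change in either population. Each population had 6 libraries, 3 in batch 1 and 3 in batch 2. The design text calls the 3 libraries of a batch technical replicates, so p-values here, and each n of 6, measure only the spread between libraries. It also counts 2 biological replicates, without saying whether these are the populations or separate captures.

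Each clustered protocadherin gene has a large exon of its own that encodes the extracellular cadherin repeats and the membrane-spanning segment, and each such variable exon has its own promoter. In the alpha and gamma clusters the variable exon is spliced to a set of constant exons shared by the whole cluster, which encode a common cytoplasmic tail. Beta genes have no constant exons. In neurons, promoters are chosen in a largely random way, which gives single cells different sets of isoforms that bind the same isoforms on neighbouring cells and so help a neuron tell its own branches from those of others. CTCF and cohesin loop the active promoters to distant enhancers, and DNA methylation and SMCHD1 keep promoters silent. Outside the nervous system, long stretches of the clusters are often methylated in tumours, breast cancers among them.

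Library totals ran from 53267145 to 75944907 counts. Levels are in CPM, counts scaled to library size with TMM factors, which align the bulk of genes between libraries. Of all genes, 22668 had enough counts to be tested, and 63.4% of them passed an adjusted p of 0.05 between the populations (31.9% higher in fast and 31.5% lower), so a call alone says little here. The median of all tested genes lay at a log2 fold change of 0.01. The line's defining markers were as follows. VIM (vimentin, a mesenchymal filament) was at 6910 ± 252 CPM in fast and 5048 ± 83.9 in parental libraries (SD, n = 6 each), CDH1 (E-cadherin) had at most 4 counts in a library, ESR1 (estrogen receptor) was at 0.139 CPM in both, and ERBB2 (HER2) was at 59.0 and 62.4 CPM. PGR (progesterone receptor) was low, at 2.05 and 0.476 CPM.

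The counts of alpha and gamma members appear to be mostly reads that the members share. Within a library most members of a cluster had counts close to the lowest one, and a few stood above it. In parental batch 1 replicate 1, for example, 7 alpha members had 51 counts and the others had 53 to 124, with PCDHAC1 highest. The gamma members had 825 to 1241 counts there, PCDHGC3 highest, apart from PCDHGA11 at 627. Counts of this kind would arise if reads from the constant exons were counted for every member of their cluster, but the sources used here do not state that setting. Under that reading, the lowest count among the members of a cluster is the most that the shared reads can be. A member's count above it is called its unshared reads here. It is a lower bound on the member's reads outside the constant exons. Some members also have other exon bases that overlap another gene, so unshared reads can include reads of that gene. Of the 6906 exon bases of PCDHGB4, 2181 were constant and 2459 were in no other gene. PCDHA12, PCDHA13, PCDHAC2 and PCDHGB1 had such overlapping bases too. Shared reads made up a median of 97.0% of an alpha member's counts (48.0% to 100%, 10 of 15 members at 90% or more) and 98.1% of a gamma member's (73.0% to 99.8%, 17 of 20). PCDHGA11 goes against that reading: it lay below the other gamma members in every library, at 75.9% to 82.3% of the level taken as shared. It was left out of the shared level and of the unshared reads. That choice and the use of unshared reads were made after the values were seen.

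The alpha cluster had hardly any reads in fast cells. The shared alpha reads, taken here as a measure of the whole cluster, numbered 0, 2 and 4 in the fast libraries of batch 1 and 1, 2 and 0 in those of batch 2. In parental libraries they numbered 51, 80 and 66 in batch 1 and 68, 45 and 70 in batch 2. No fast library came near the lowest parental one. In CPM the shared alpha level was 0.0248 ± 0.0288 in fast and 0.984 ± 0.216 in parental libraries (SD, n = 6 each), a 39.7-fold lower mean. Fewer cells with alpha transcripts and less transcript per cell cannot be told apart in bulk RNA. The cluster was also weakly expressed in parental cells: per kilobase of the 2866 constant exon bases it was at 0.343 CPM there, against 6.06 CPM per kilobase for the 2181 constant bases of the gamma cluster.

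With all reads counted, all 15 alpha members were tested and all 15 were lower in fast (edgeR's quasi-likelihood test with Benjamini-Hochberg adjustment over all tested genes, largest adjusted p = 7.53e-14), where 31.5% of all genes were lower. These are not 15 measurements, since the members share most of their reads. All 15 passed the low-count filter through the parental libraries alone, so they could only be found lower, and the count supports nothing further. Log2 fold changes ran from -5.52 in PCDHA12 to -4.63 in PCDHA4, with a median of -5.32. Among all genes, 6.92% were called and at least 2-fold lower, and 1.25% were called and at least 16-fold lower. No fast library overlapped a parental one for any of the 15, and 19.6% of all tested genes lay wholly lower in this way. The median was -4.95 within batch 1 and -5.83 within batch 2.

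**Figure D1:**
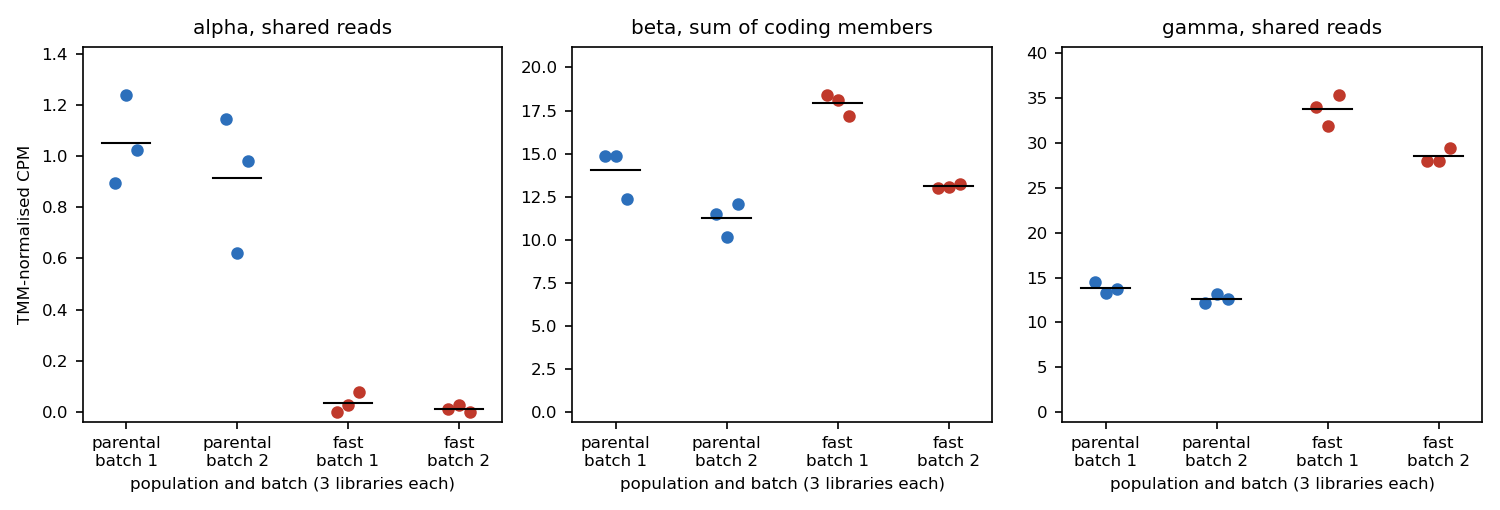
TMM-normalised CPM (linear axes starting at 0, a separate scale for each panel) of the shared alpha reads, the summed beta members and the shared gamma reads, by population and batch, with 1 point per library and a line at each mean of 3. Fast libraries lay at or below 0.0771 CPM for alpha against at least 0.622 in parental libraries, and at 28.0 to 35.4 CPM for gamma against 12.1 to 14.5, while the beta sums overlapped.

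Unshared reads differed widely between alpha members in parental cells. PCDHAC1 and PCDHA13 ranked first and second per kilobase of exon shared with no other gene, in either order, in 6 of 6 parental libraries. PCDHAC1 is a C-type member, the kind that neurons express broadly rather than at random, and it held 42.7% of the unshared alpha reads of parental libraries, with PCDHA13 at 24.9%. PCDHAC1 had 56 to 80 unshared reads in each parental library and 0 to 4 in each fast one. Its unshared level was 0.944, 1.05 and 1.28 CPM in parental libraries (lowest, median and highest) and 0, 0.0149 and 0.0594 CPM in fast libraries. The populations did not overlap, and the log2 fold change was -5.58 ± 0.39 (SE, n = 6 each; edgeR adjusted p = 8.12e-15).

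PCDHA13 had unshared levels of 0.387, 0.660 and 0.837 CPM in parental libraries and 0, 0 and 0.0771 CPM in fast libraries. All 4 of its unshared fast reads were in fast batch 1 replicate 3, so without that library the fast population has none. Its log2 fold change was -5.69 ± 0.55 (edgeR adjusted p = 3.98e-11). PCDHAC2, the other C-type alpha member, was at 0.138, 0.264 and 0.558 CPM in parental and 0, 0 and 0.0594 CPM in fast libraries, a log2 fold change of -3.91 ± 0.63 (edgeR adjusted p = 1.63e-06). All 7 of its unshared fast reads were in batch 2. PCDHA12 had no unshared read in any fast library and 62 in parental ones (0.0701, 0.155 and 0.235 CPM). It was lower in fast (edgeR adjusted p = 1.54e-06). No fold is given, since unshared reads are a lower bound and all 9 counts listed for PCDHA12 in fast libraries could be its own. The folds given for PCDHAC1, PCDHA13 and PCDHAC2 have the same limit, which their SEs do not cover. These had 17, 13 and 16 counts listed in fast libraries, of which 8, 4 and 7 were unshared. None of these 4 members overlapped between the populations. They were the only alpha members with enough unshared reads to be tested, and all 4 were lower, again with 31.5% of all genes lower in that fit. As with all reads, they passed the filter on the parental side.

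The other alpha members had few unshared reads. PCDHA11 had 36 in parental libraries and 0 in fast ones, and PCDHA3 had 12 and 0, with 9 counts listed for each in fast libraries. PCDHA4 had 51 and 8, and PCDHA1 had 22 and 6. PCDHA2, PCDHA6, PCDHA7, PCDHA9 and PCDHA10 each had at most 5 in a population. PCDHA5 and PCDHA8 had the lowest count of the cluster in every library, which sets their unshared reads to 0.

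Promoters of the members were read from RefSeq (GRCh38.p14; 250 bases before to 50 after a gene's start), and 46 of the 52 coding members were matched, in 50 windows. PCDHA3, PCDHA13, PCDHB6, PCDHB11, PCDHGA12 and PCDHGC5 were not matched. In the alpha cluster, 9 of 13 matched genes held the word GATGTCGCT on either strand, against 0.105% of all 35116 promoter windows. It lay a median of 53 bases before the start (43 to 86). No beta or gamma promoter held it. The word was read off these promoters after they had been seen, and a match describes letters, not binding. The lines below show it in capitals with 15 bases on each side, for PCDHA12, which was tested on unshared reads, for PCDHA4 and PCDHA1, which had fewer, and for PCDHA5 and PCDHA8, the members with the lowest counts.
PCDHA12 (chr5:140875240-140875278, plus strand): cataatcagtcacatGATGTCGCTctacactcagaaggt
PCDHA4 (chr5:140806975-140807013, plus strand): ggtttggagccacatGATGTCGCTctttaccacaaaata
PCDHA1 (chr5:140786082-140786120, plus strand): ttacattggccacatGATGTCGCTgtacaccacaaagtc
PCDHA5 (chr5:140821538-140821576, plus strand): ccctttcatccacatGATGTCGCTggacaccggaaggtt
PCDHA8 (chr5:140841126-140841164, plus strand): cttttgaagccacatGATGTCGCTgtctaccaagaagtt
PCDHA5 and PCDHA8 carried the same 9 letters as PCDHA12. PCDHA9, PCDHA11, PCDHAC1 and PCDHAC2 did not hold the word in this window. The PCDHAC1 promoter had 27 CpG, the most of the matched alpha promoters (median 7, and 14 over all windows). It is printed whole because this member had the most unshared alpha reads in parental cells.
PCDHAC1 (chr5:140926049-140926348, plus strand): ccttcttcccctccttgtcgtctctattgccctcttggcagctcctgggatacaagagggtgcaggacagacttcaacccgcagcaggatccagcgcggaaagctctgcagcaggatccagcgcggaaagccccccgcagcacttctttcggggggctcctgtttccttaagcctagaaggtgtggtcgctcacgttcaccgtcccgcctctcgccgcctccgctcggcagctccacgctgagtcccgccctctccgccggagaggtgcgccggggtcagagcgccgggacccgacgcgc

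**Figure D2:**
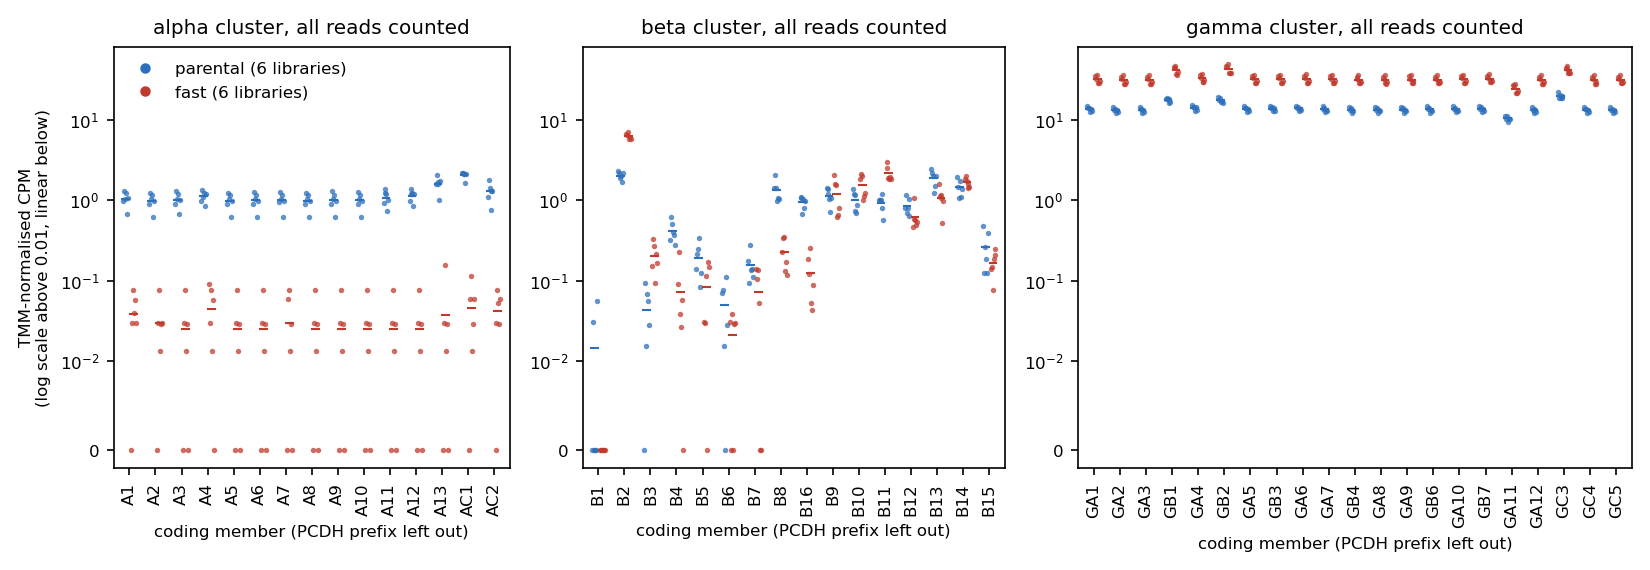
TMM-normalised CPM of the coding members in gene order, all reads counted (log axis above 0.01 and linear below), with 1 point per library and a bar at each mean of 6. Most alpha members stood near 1 CPM in parental libraries, with PCDHAC1 (mean 2.05 CPM) and PCDHA13 (1.60 CPM) highest, and all stood at or below 0.154 CPM in fast libraries. Most gamma members stood near 31 CPM in fast and 13 CPM in parental libraries, with PCDHGB1, PCDHGB2 and PCDHGC3 above and PCDHGA11 below. Beta members spread more widely.

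Beta genes share no constant exons, so no reads are shared by the whole cluster. Reads that match several near-identical beta genes could still have been placed on the wrong one or left out. Some beta exons also overlap another gene in the annotation, and counts could include reads of that gene. Of the 4126 exon bases of PCDHB2, for example, 3506 were in no other gene. The summed level of the 16 beta members was 15.5 ± 2.66 CPM in fast and 12.6 ± 1.88 CPM in parental libraries (SD, n = 6 each), a ratio of 1.23. The sums overlapped, and in fast cells the batches stood apart, at 17.2 to 18.4 CPM in batch 1 and 13.03 to 13.3 CPM in batch 2. Of 13 tested beta members, 4 were higher in fast, 5 were lower and 4 did not pass, with a median log2 fold change of -0.47. Over all genes 31.9% were higher and 31.5% lower. Without overlap between the populations, 3 of the 16 were higher and 3 lower, against 18.8% and 19.6% of all tested genes.

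PCDHB2 was the main beta gene of fast cells. It stood at 5.67, 6.24 and 7.11 CPM in fast libraries (lowest, median and highest) and at 1.66, 2.06 and 2.297 CPM in parental ones. Every fast library was above every parental one, and the fold was 3.10 (log2 1.63 ± 0.09 SE, n = 6 each; edgeR adjusted p = 1.43e-17), and the log2 fold change was 1.68 within batch 1 and 1.58 within batch 2. PCDHB2 held 40.5% of the beta counts in fast and 16.03% in parental libraries. Per kilobase of exon shared with no other gene it ranked first among beta members in 6 of 6 fast libraries and 4 of 6 parental ones.

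PCDHB11 was at 1.81, 1.92 and 3.00 CPM in fast and 0.560, 1.003 and 1.19 CPM in parental libraries. The populations were apart, with a 2.32-fold higher level in fast (log2 1.21 ± 0.15; edgeR adjusted p = 1.52e-08). PCDHB3 was much scarcer, with 79 counts over the fast libraries and 17 over the parental ones. Its levels were 0.0931, 0.189 and 0.328 CPM in fast and 0, 0.0416 and 0.0930 CPM in parental libraries, so that the lowest fast and the highest parental library were almost level but did not overlap. The log2 fold change was 2.14 ± 0.53 (edgeR adjusted p = 0.00063), on a filter that PCDHB3 passed through fast libraries alone.

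PCDHB10 was higher by less, 1.53-fold (log2 0.62 ± 0.14; edgeR adjusted p = 0.000264). Its 6 fast values ran from 1.01 to 2.10 CPM around a median of 1.53, and its parental values from 0.691 to 1.39 CPM around 1.01, so the populations overlapped. Within a batch they did not. In batch 1 it was at 1.85, 2.10 and 2.01 CPM in fast against 1.39, 1.18 and 1.148 CPM in parental libraries, and in batch 2 at 1.01, 1.12 and 1.22 CPM against 0.742, 0.691 and 0.868 CPM.

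PCDHB16, PCDHB8 and PCDHB4 had the largest falls among beta members. PCDHB16 fell from 0.667, 1.01 and 1.09 CPM in parental libraries to 0.0430, 0.104 and 0.251 CPM in fast ones, 7.98-fold (log2 -3.00 ± 0.29; edgeR adjusted p = 4.85e-11). PCDHB8 was at 0.978, 1.23 and 2.03 CPM in parental and 0.119, 0.201 and 0.347 CPM in fast libraries, 6.02-fold lower (log2 -2.59 ± 0.21; edgeR adjusted p = 4.58e-13). In parental libraries PCDHB8 held 10.5% of the beta counts, and in fast libraries 1.41%. PCDHB4 was at 0.280, 0.389 and 0.620 CPM in parental and 0, 0.0480 and 0.224 CPM in fast libraries, 5.88-fold lower (log2 -2.56 ± 0.43; edgeR adjusted p = 3.65e-06). For each of these 3 the highest fast library was below the lowest parental one. PCDHB16 and PCDHB4 passed the filter through parental libraries alone.

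PCDHB13 was lower by less, 1.75-fold (log2 -0.81 ± 0.16; edgeR adjusted p = 5.93e-05), with parental libraries at 1.21, 1.99 and 2.40 CPM and fast ones at 0.516, 1.09 and 1.59 CPM. The populations overlapped. PCDHB5, which passed the filter through parental libraries alone, was at 0.0829, 0.179 and 0.337 CPM in parental and 0, 0.0731 and 0.172 CPM in fast libraries, with overlap, and its log2 fold change of -1.23 ± 0.54 barely passed (edgeR adjusted p = 0.0463). That call was lost without a batch term (adjusted p = 0.0951), with replicate pairs as a block (0.0819), and when any of 7 libraries was left out (0.0554 to 0.175): fast replicates 1 and 2 of batch 1, fast replicate 1 of batch 2, all 3 parental replicates of batch 1 and parental replicate 1 of batch 2.

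4 tested beta members did not pass. PCDHB14 was at 1.41 to 1.98 CPM in fast and 1.07 to 1.93 CPM in parental libraries (log2 0.21 ± 0.15; edgeR adjusted p = 0.212). PCDHB12 had a log2 fold change of -0.47 ± 0.21 (adjusted p = 0.0533) and PCDHB15 one of -0.63 ± 0.39 (adjusted p = 0.163), both by edgeR. With replicate pairs as a block PCDHB12 did pass (edgeR adjusted p = 0.0341). PCDHB9 had 0.01 ± 0.17 over both batches (edgeR adjusted p = 0.962), but its fast libraries split by batch: 2.03, 1.59 and 1.52 CPM in batch 1 and 0.612, 0.660 and 0.802 CPM in batch 2. Parental libraries were at 1.403, 1.38 and 1.18 CPM in batch 1 and 1.05, 0.704 and 1.06 CPM in batch 2. Its effect was 0.38 in batch 1 and -0.44 in batch 2, a difference that did not pass (edgeR adjusted p = 0.132). PCDHB1, PCDHB6 and PCDHB7 had too few counts to be tested, with 0, 8 and 27 counts over fast libraries and 6, 20 and 60 over parental ones.

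**Figure D3:**
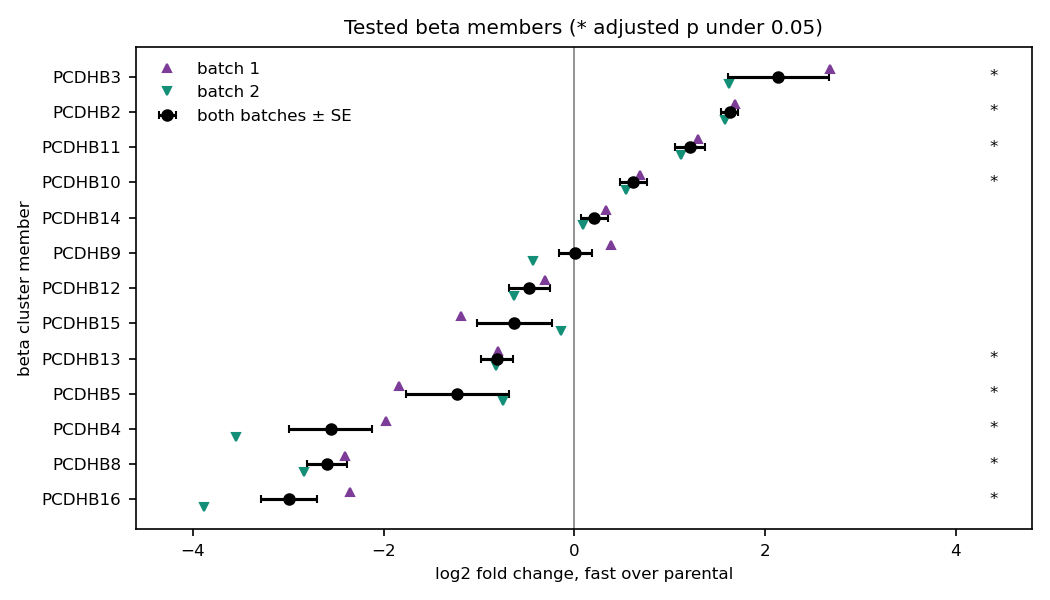
Log2 fold changes, fast over parental, of the 13 tested beta members: black points with bars of 1 SE for both batches together, upward triangles for batch 1, downward triangles for batch 2, and stars for an adjusted p under 0.05. The members spread from -3.00 in PCDHB16 to 2.14 in PCDHB3, and PCDHB9 had opposite signs in the batches.

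Beta promoters were alike in sequence, whatever the direction of the gene. The word GGTGGCGCT, read off these promoters after they had been seen, was in 13 of 14 matched beta promoters and in 0.501% of all windows, on either strand, and in no alpha or gamma promoter. It contains the shorter word GGCGCT, which was in the same number of beta promoters and in 21.7% of all windows. The shorter word was also in 1 of 13 alpha and 8 of 19 gamma genes. The median distance to the start was 66 bases (2 to 84). The lines show the word in capitals with 15 bases on each side, first for 3 members that were higher in fast and then for 4 that were lower.
PCDHB2 (chr5:141094540-141094578, plus strand): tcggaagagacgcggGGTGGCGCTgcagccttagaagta
PCDHB3 (chr5:141100389-141100427, plus strand): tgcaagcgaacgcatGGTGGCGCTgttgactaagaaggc
PCDHB10 (chr5:141192295-141192333, plus strand): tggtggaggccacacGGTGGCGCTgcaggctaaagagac
PCDHB16 (chr5:141182306-141182344, plus strand): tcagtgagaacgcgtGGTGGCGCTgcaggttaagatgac
PCDHB8 (chr5:141177773-141177811, plus strand): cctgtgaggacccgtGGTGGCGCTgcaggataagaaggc
PCDHB4 (chr5:141121719-141121757, plus strand): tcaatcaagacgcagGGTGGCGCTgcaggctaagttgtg
PCDHB13 (chr5:141213861-141213899, plus strand): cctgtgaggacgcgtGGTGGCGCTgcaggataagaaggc
All 7 carried the same 9 letters. PCDHB1, with at most 4 counts in a library, was the matched beta promoter without them in this window. The PCDHB2 promoter is printed whole, with the word in capitals, because this gene was the main beta gene of fast cells.
PCDHB2 (chr5:141094365-141094664, plus strand): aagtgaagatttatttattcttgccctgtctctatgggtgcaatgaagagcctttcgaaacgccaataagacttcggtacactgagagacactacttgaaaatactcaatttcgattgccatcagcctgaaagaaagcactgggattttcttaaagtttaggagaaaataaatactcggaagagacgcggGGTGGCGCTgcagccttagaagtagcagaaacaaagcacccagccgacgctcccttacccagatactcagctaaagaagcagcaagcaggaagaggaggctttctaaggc

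The gamma cluster was higher in fast cells. The shared gamma reads were at 28.0, 30.7 and 35.4 CPM in fast libraries (lowest, median and highest) and at 12.1, 13.2 and 14.5 CPM in parental ones. The lowest fast library was far above the highest parental one, and the mean was 2.36-fold higher in fast (31.1 ± 3.14 against 13.2 ± 0.824 CPM, SD, n = 6 each). With all reads counted, all 21 gamma members were tested and all 21 were higher (edgeR, largest adjusted p = 3.4e-21), where 31.9% of all genes were higher and 3.98% were called and at least 2-fold higher. None overlapped between the populations, where 18.8% of all genes were wholly higher. As in the alpha cluster these are not separate measurements. Log2 fold changes ran from 1.06 in PCDHGC3 to 1.28 in PCDHGB2 with a median of 1.23, and the median was 1.29 within batch 1 and 1.17 within batch 2. PCDHGA11, counted below the others, was at 24.3 ± 2.86 CPM in the fast population and 10.3 ± 0.608 CPM in the parental one, a log2 fold change of 1.23 ± 0.05.

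3 members supplied most of the gamma reads that could be told apart. PCDHGB1, PCDHGB2 and PCDHGC3 together held 79.4% of the unshared gamma reads in fast and 78.6% in parental libraries. They were the 3 highest per kilobase of exon shared with no other gene in 6 of 6 libraries of each population. PCDHGB2 had unshared levels of 8.82, 11.4 and 13.5 CPM in fast and 3.61, 4.31 and 4.87 CPM in parental libraries. The populations were apart, with a log2 fold change of 1.405 ± 0.07 (edgeR adjusted p = 7.5e-19). PCDHGB1 was at 8.20, 9.94 and 12.4 CPM in fast and 3.82, 4.05 and 5.13 CPM in parental libraries, also apart, with a log2 fold change of 1.22 ± 0.08 (edgeR adjusted p = 8.39e-15).

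PCDHGC3 is a C-type member found in many tissues outside the brain, and its tail is known to bind AXIN1, a brake on Wnt signalling. Its unshared level was 8.76, 9.93 and 11.03 CPM in fast and 5.49, 6.49 and 7.30 CPM in parental libraries. Every fast library was above every parental one, and the log2 fold change was 0.62 ± 0.07 (edgeR adjusted p = 8.93e-10). Its share of the unshared gamma reads was 33.7% in parental and 25.2% in fast libraries, while that of PCDHGB2 was 22.2% and 28.6%. The difference in fold change between these members was not tested. The remaining C-type members had few unshared reads, which does not bound their own reads from above: PCDHGC4 had 38 unshared reads over the fast and 10 over the parental libraries, and PCDHGC5 had 44 and 29.

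Among the tested gamma members, those with the largest fold changes of unshared reads were scarce ones. PCDHGA9 was at 0.308, 0.380 and 0.639 CPM of unshared reads in fast and 0.0337, 0.0626 and 0.0931 CPM in parental libraries, a log2 fold change of 2.65 ± 0.38 (edgeR adjusted p = 2.16e-07). PCDHGB7 was at 1.08, 1.151 and 1.504 CPM in fast and 0.185, 0.339 and 0.543 CPM in parental libraries (log2 1.81 ± 0.20; edgeR adjusted p = 9.87e-10). PCDHGA10 was at 0.445, 0.824 and 1.22 CPM in fast and 0.0700, 0.267 and 0.386 CPM in parental libraries (log2 1.83 ± 0.26; edgeR adjusted p = 1.6e-07). None of these 3 overlapped between the populations. They were chosen for these sentences after their unshared values were seen. Unshared reads are lower bounds in both populations, so the folds of own reads could be larger or smaller, which the SEs do not cover. This holds for every fold of unshared gamma reads. PCDHGA9 had 2 to 6 unshared reads in a parental library, and 99.5% of its parental counts were shared. On unshared reads it passed the low-count filter through fast libraries alone, so it could only be found higher. With all reads its log2 fold change was 1.24.

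On unshared reads 14 gamma members were tested, of which 11 were higher, 0 were lower and 3 did not pass. The median log2 fold change was 0.92, beside 31.9% of all genes higher in that fit. Of the members called higher, PCDHGA9 and PCDHGB4 passed the low-count filter through fast libraries alone, so they could only be found higher. The calls that did not pass were PCDHGA1 (log2 0.54 ± 0.25, adjusted p = 0.0565), PCDHGB3 (0.33 ± 0.22, adjusted p = 0.183) and PCDHGB6 (0.26 ± 0.39, adjusted p = 0.584), all by edgeR. PCDHGB3 was thus among the calls with all reads and not among those on unshared reads. PCDHGA4, PCDHGA5, PCDHGA6, PCDHGA7 and PCDHGB4 were higher with log2 fold changes from 0.55 in PCDHGA6 to 1.04 in PCDHGB4. Of these, PCDHGA6 (adjusted p up to 0.0775) and PCDHGB4 (up to 0.138) lost the call when some single libraries were left out, and PCDHGB4 also when the 3 libraries of each population and batch were summed (edgeR adjusted p = 0.0589). PCDHGA2, PCDHGA3, PCDHGA8, PCDHGA12, PCDHGC4 and PCDHGC5 had too few unshared reads to be tested. PCDHGA12 had 41 unshared reads over the fast and 3 over the parental libraries, with overlap between the populations.

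**Figure D4:**
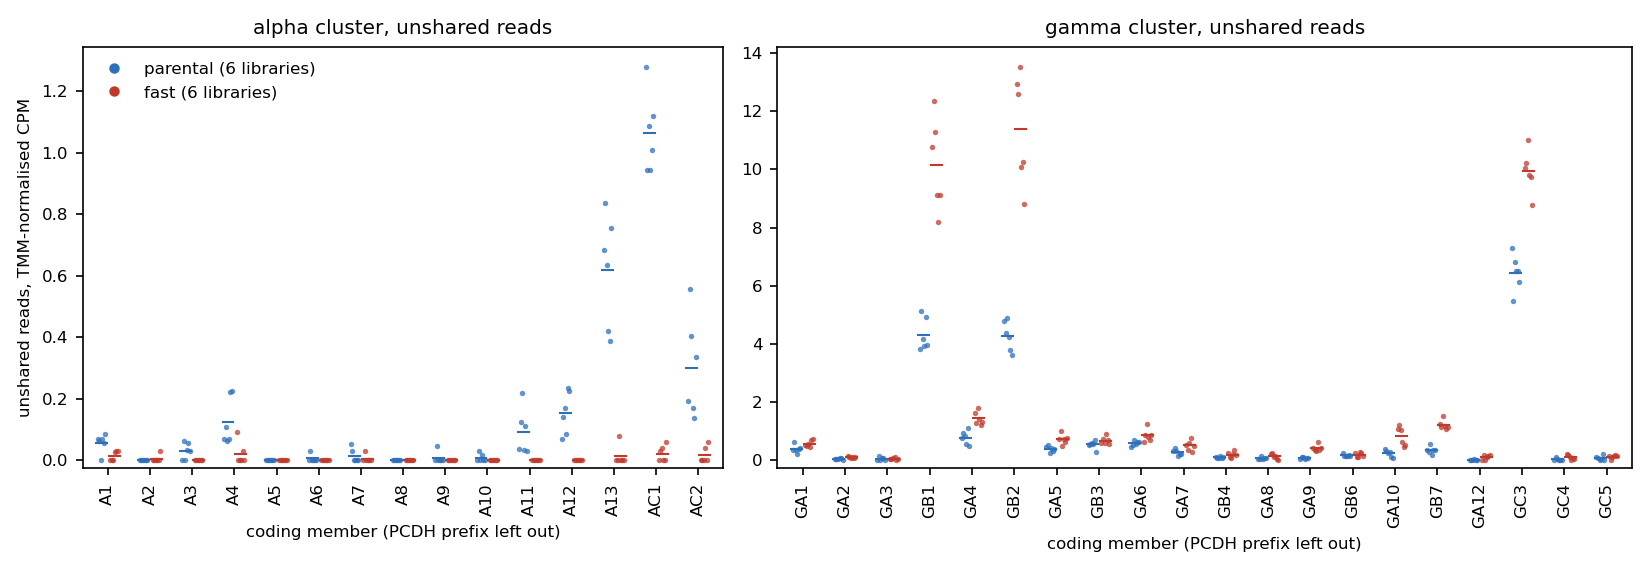
Unshared reads in TMM-normalised CPM (linear axes starting at 0, a separate scale for each panel) of the alpha and gamma members in gene order, with 1 point per library and a bar at each mean of 6, PCDHGA11 left out. PCDHAC1 and PCDHA13 led the alpha cluster in parental libraries, and PCDHGB1, PCDHGB2 and PCDHGC3 stood far above the other gamma members in both populations.

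Gamma promoters carried a looser form of the word. GNGNCGCTG, also read off the promoters, was on either strand of a window in 17 of 19 matched gamma genes, but it was in 10.2% of all windows too, and in 12 of 14 beta genes, where it overlaps GGTGGCGCT. It lay a median of 66 bases before the start (43 to 224). The lines show it in capitals for the 3 leading gamma members and for PCDHGA9 and PCDHGA10.
PCDHGB2 (chr5:141359918-141359956, plus strand): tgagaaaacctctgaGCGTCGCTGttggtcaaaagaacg
PCDHGB1 (chr5:141350022-141350060, plus strand): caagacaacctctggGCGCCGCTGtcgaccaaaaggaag
PCDHGC3 (chr5:141475877-141475915, plus strand): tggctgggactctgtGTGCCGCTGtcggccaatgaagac
PCDHGA9 (chr5:141402711-141402749, plus strand): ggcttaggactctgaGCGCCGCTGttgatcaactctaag
PCDHGA10 (chr5:141412928-141412966, plus strand): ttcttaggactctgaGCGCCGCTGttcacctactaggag
PCDHGB3 and PCDHGB7 did not hold it in this window. 2 other words were searched on both strands. For CTCF this was 1 form of its motif, so a window without it can still hold a CTCF site. CTCF binding was not tested. A core form of the CTCF motif was in 0 alpha, 1 beta and 0 gamma genes and in 2.41% of all windows, and TATAAA was in 3 alpha, 1 beta and 2 gamma genes and in 11.5% of all windows. The PCDHGC3 promoter is printed whole, as that of the gamma C-type member with the most unshared reads.
PCDHGC3 (chr5:141475716-141476015, plus strand): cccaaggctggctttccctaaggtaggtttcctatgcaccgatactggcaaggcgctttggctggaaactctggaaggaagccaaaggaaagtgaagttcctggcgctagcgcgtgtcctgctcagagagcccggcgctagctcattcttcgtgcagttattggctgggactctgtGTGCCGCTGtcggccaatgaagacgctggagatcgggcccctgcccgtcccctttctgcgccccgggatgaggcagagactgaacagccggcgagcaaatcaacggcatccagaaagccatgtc

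The 5 pseudogenes were at the edge of detection, and none was tested. PCDHA14 had 0 counts over the fast and 3 over the parental libraries, PCDHB17 had 3 and 2, PCDHB18 had 10 and 26, PCDHB19P had 17 and 12, and PCDHGB8P had 21 and 14. No pseudogene had more than 10 counts in a library. PCDHA14 and PCDHGB8P have no constant exons in the annotation, and their counts lay at or below the shared reads of their clusters.

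The 3 clusters moved differently: alpha lower, gamma higher and beta mixed.  By edgeR 0 of the 49 tested members differed in effect between the batches, where 5.38% of all genes did. The 49 are not separate measurements, since alpha members share most of their reads and so do gamma members. Alpha members also had hardly any fast reads, so a lack of calls shows little. At an unadjusted p under 0.05 there were 4 members, where 17.5% of all genes passed, and by limma-voom there were again 0. Because the design text calls the libraries of a batch technical replicates, the counts were also summed to 1 sample per population and batch. So few samples give little hold on the spread, and members still share reads, so matching numbers of calls show little. Whether the batches are separate captures is not stated. With these 4 samples 25 members were higher and 20 lower, as with the 12 libraries, while the share of all genes called was 55.3%.

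Genes on either side of the clusters were compared too. Of the 10 tested protein-coding genes before the alpha cluster, 0 were higher, 6 were lower and 4 did not pass, with a median log2 fold change of -0.18 (-0.28 to 0.25). Of the 10 after the gamma cluster, 6 were higher, 3 were lower and 1 did not pass, with a median of 0.15 (-0.84 in PCDH12 to 0.85 in ARAP3), where 31.9% of all genes were higher and 31.5% lower. The part of a wider regional change in the cluster values was not tested. ZMAT2, a zinc finger gene next to the alpha cluster, was at 74.3 ± 2.89 CPM in the fast population and 74.0 ± 3.22 CPM in the parental one (log2 0.01, edgeR adjusted p = 0.869). DIAPH1, a formin that assembles actin filaments and lies next to the gamma cluster, was at 433 ± 16.7 and 361 ± 11.4 CPM (log2 0.26, edgeR adjusted p = 2.49e-10). TAF7, a subunit of the general transcription factor TFIID that stands between the beta and gamma clusters, was at 160 ± 4.02 and 136 ± 3.87 CPM (log2 0.24, edgeR adjusted p = 1.12e-09). PCDH12 is itself a protocadherin outside the clusters.

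Factors known to loop, methylate or silence the clusters moved in both directions. Of 36 tested, 15 were higher, 13 were lower and 8 did not pass, where 31.9% of all genes were higher and 31.5% lower, with a median log2 fold change of -0.0019. SMCHD1, which keeps the clusters and the inactive X chromosome silent, had the largest change, 193 ± 10.1 CPM in fast against 117 ± 8.97 CPM in parental libraries (log2 0.72 ± 0.03; edgeR adjusted p = 1.38e-21). CTCF was at 104 ± 3.75 and 82.3 ± 3.31 CPM (log2 0.33 ± 0.03; edgeR adjusted p = 1.45e-11). RAD21, a cohesin subunit, had a log2 fold change of 0.13 (edgeR adjusted p = 1.68e-05). Lower in fast were HDAC8, which deacetylates the cohesin subunit SMC3 (-0.69), WIZ, a zinc finger partner of the histone methyltransferases EHMT1 and EHMT2 (-0.56), and SETDB1, a histone methyltransferase that silences the clusters (-0.55). DNMT3B, a DNA methyltransferase, did not pass (0.06, edgeR adjusted p = 0.294). The part of these factors in the levels of the clusters was not tested.

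Protocadherins and large cadherins outside the clusters were listed as well. Of 25, 19 were tested: 5 were higher, 11 lower and 3 did not pass, where 31.9% of all genes were higher and 31.5% lower, with a median log2 fold change of -0.50. FAT3, a giant cadherin, was at 8.31 ± 1.56 CPM in the fast population and 36.2 ± 3.57 CPM in the parental one (log2 -2.13 ± 0.05; edgeR adjusted p = 1.31e-27). PCDH7 was at 2.299 ± 0.581 and 6.91 ± 1.31 CPM (log2 -1.60 ± 0.09; edgeR adjusted p = 1.03e-17). FAT2 was lower (log2 -1.16) and PCDH10, a delta protocadherin that recruits an actin regulator, was higher (log2 1.17 ± 0.21; edgeR adjusted p = 1.21e-05). PCDH11X had 0 counts over the fast and 35 over the parental libraries, too few to be tested.

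Proteins that bind clustered protocadherins, cut them or carry their signals were listed too. Of 35, 34 were tested: 11 were higher, 17 lower and 6 did not pass, where 31.9% of all genes were higher and 31.5% lower, with a median log2 fold change of -0.10. The WAVE complex drives branched actin and binds a motif in the tails of several protocadherins, and its listed members differed in direction. CYFIP2 was at 0.488 ± 0.171 CPM in the fast population and 14.98 ± 0.967 CPM in the parental one (log2 -4.91 ± 0.10; edgeR adjusted p = 5.74e-29), WASF3 at 2.80 ± 0.353 and 15.5 ± 1.26 CPM (log2 -2.47 ± 0.07; edgeR adjusted p = 2.21e-25) and WASF2 at 149 ± 3.92 and 337 ± 9.13 CPM (log2 -1.17 ± 0.02; edgeR adjusted p = 1.34e-29). NLGN3, a neuroligin of synapses, was lower as well (log2 -2.63 ± 0.28; edgeR adjusted p = 5.2e-10). ADAM10, the protease that sheds gamma protocadherins, was at 96.5 and 86.0 CPM (log2 0.17; edgeR adjusted p = 5.33e-06). Of the other listed WAVE genes, NCKAP1 (log2 0.11) and ABI1 (0.12) were higher, ABI2 (-0.17) and BRK1 (-0.48) were lower, and WASF1 (-0.06, edgeR adjusted p = 0.163) and CYFIP1 (-0.01, edgeR adjusted p = 0.763) did not pass. ADAM10 and these 6 WAVE genes were named after their values were seen.

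Markers of other cell types were mostly scarce, with some exceptions, and their counts stand beside 31.9% of all genes higher and 31.5% lower. Of 20 neuron markers 6 were at 0 in all libraries (STMN2, NEFL, NEFM, ELAVL4, DCX and NCAM1), and 7 were tested, of which 3 were higher, 1 was lower and 3 did not pass. The summed level of the list was 238 to 251 CPM in fast and 128 to 138 CPM in parental libraries, most of it TUBB3 (170 and 88.4 CPM) and ENO2 (64.0 and 37.1 CPM). SYT1 was higher (log2 1.39), as were TUBB3 (0.94) and ENO2 (0.79), and SYP was lower (-0.87). Of 10 fibroblast markers 2 were tested, 0 were higher and 1 was lower (COL1A1, log2 -0.61), with sums of 9.13 to 11.8 CPM in fast and 14.2 to 16.7 CPM in parental libraries, and DCN and LUM were at 0 throughout. Of 10 leukocyte markers 1 was tested and did not pass, and the sums were at most 1.10 CPM, with CD3D and MS4A1 at 0. Of 10 endothelium markers 9 were matched and 6 tested: 3 were higher and 2 lower, with ESAM (log2 1.04), EGFL7 (1.48), TIE1 (-1.38) and VWF (-1.17) having the largest changes. Endothelial sums were 219 to 248 CPM in fast and 113 to 129 CPM in parental libraries, most of it ESAM (197 and 95.7 CPM), while CDH5 was at 0.0442 and 0.0466 CPM. The part of these genes in the results above was not tested.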

How the data were processed

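Total RNA of 12 MDA-MB-231 libraries was sequenced. Per the submitters' processing notes, Trimmomatic 0.32, STAR 2.3.0e and featureCounts 1.4.4 were used with the builds hg19 and GRCh37. The authors deposited raw gene counts with no normalization. Strand use and the treatment of reads that overlap several genes are not given in the sources used here. Of counts from 2 to 20, 75.9% were even. Counting both reads of a pair could give this, but the sources used here do not state it, and it was not tested. Low counts would then stand for fewer separate fragments. No counting intervals are given for this reason.

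Libraries were grouped by their labels. Genes past edgeR's default filter (minimum count 10, minimum total 15) were fitted with edgeR 4.0.16 (R 4.3.3; TMM, robust quasi-likelihood, batch as a term; SE taken from the F value), with Benjamini-Hochberg adjustment over all 22668 and a threshold of 0.05. Effects within a batch came from a fit of 4 group means. DESeq2 1.42.0 and limma 3.58.1 were alternatives. The fit was tested on simulated data. Libraries of a group differed beyond sampling noise in all 12 pairs (dispersion index 3.41 to 8.78).

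Members and lists were chosen with earlier results of these data known. Of listed genes 140 were matched by ID, 5 by symbol and 1 (PECAM1) not. By rule, the members named per cluster are the 4 highest per kilobase of unshared exon and the 4 with the largest called change. The rule also names the 2 nearest to 0 per cluster, C-type members and all called lower. Members outside the rule, such as PCDHB12, PCDHB15 and PCDHGA1, are named as well. Of other lists, up to 4 called genes with the largest change are named, with CTCF, SMCHD1, RAD21, DNMT3B, the line's markers and the nearest neighbours. Exon lengths and gene order came from GENCODE release 29 (GRCh38), another build than the counts, matched by ID. PCDHB16, which has another ID there, was matched by symbol.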

Additional observations from a re-analysis of the deposited data

Results flagged for a closer look

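Within each population, 36 members named by the rule were examined in 72 groups of 6 libraries for a library whose gap to the nearest of the others exceeded Dixon's critical share of the group's range. 2 stood out. Many of these groups share reads, and alpha counts in fast libraries are few and often tied, so this number was set against no chance rate. PCDHA13 in fast cells was at 0.154 CPM in fast batch 1 replicate 3, where the next library was at 0.0298 and the lowest at 0. PCDHAC1 in parental cells was at 1.63 CPM in parental batch 2 replicate 2, below the next library at 2.09 and the highest at 2.18. Both values include the shared alpha reads, which were highest of the fast libraries in the first (0.0771 CPM) and lowest of the parental libraries in the second (0.622 CPM). Without fast batch 1 replicate 3 the median log2 fold change of the alpha cluster was -5.88.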

How the results depend on the processing

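The counts of members higher (25) and lower (20), and their split by cluster, were the same with DESeq2's Wald test, limma-voom, replicate pairs as a block and sums of libraries. Replicate numbers were taken from the sample titles, and the deposited names of some batch 1 libraries carry other numbers. The numbers used did not pair libraries (correlations -0.075 to 0.074 over 6 pairs, 4 of 12 libraries best with their own number). With the block only PCDHB5 (edgeR adjusted p = 0.0819) and PCDHB12 (0.0341) changed sides. A filter at a mean of 1 CPM left 28 members and 2 lower calls, 1 in alpha (1 tested) and 1 in beta (6 tested), and turned the beta median from -0.47 to 0.39, as it removed most lower members. It left 3 higher and 6 lower non-clustered protocadherins. With no filter, 3 fibroblast, 2 leukocyte and 1 endothelium markers were lower, and 1 endothelium marker with the 1 CPM filter or no batch term. Shared reads taken off (chosen after seeing the data) gave 15 members higher and 9 lower, 4 lower in alpha and 11 higher in gamma (10 with summed libraries), with medians of -5.64 in alpha and 0.92 in gamma. Leaving out 1 library gave 19 to 21 lower members, 4 to 6 lower in beta, alpha medians from -5.88 to -5.03 and, on unshared reads, 4 to 5 lower in alpha and 11 to 13 higher in gamma. PCDHB9, uncalled throughout, was at -0.0058 with DESeq2, -0.0037 with the 1 CPM filter, and from -0.095 to 0.097 without single libraries. Depth limits PCDHB1, PCDHB6, PCDHB7, the pseudogenes and most alpha members in fast cells.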
